A study of Homo sapiens with 6 samples.

Results

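The miR-15/16 family, with its members miR-195 and miR-497, was examined in small RNA libraries of A549 cells. Its members were all rows of the deposited table named hsa-miR-15a, hsa-miR-15b, hsa-miR-16, hsa-miR-195 or hsa-miR-497, on either arm of the hairpin. The rule used names only and found 9 of the 787 mature miRNAs listed, of which 5 were 5p arms and 4 were 3p arms. A549, a widely used epithelial line from a human lung adenocarcinoma, is known to lack functional SMARCA4. SMARCA4, also called BRG1, is an ATPase of the SWI/SNF chromatin remodelling complex. Both groups were A549 cells transfected with a lipid reagent and harvested 48 h later, 3 libraries from cells given the empty plasmid pcDNA4 and 3 from cells given pcDNA4-SMARCA4. Expression was restored from a plasmid in a single cell line, and the design text calls the replicates independent and biological.

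A miRNA guides an Argonaute protein to messenger RNAs, which it recognises mainly through the seed, bases 2 to 8 from its 5′ end. The miR-15/16 family is known for restraining the cell cycle and survival through targets such as BCL2, CCND1, CCNE1, CDK6, WEE1 and CHEK1. The pair miR-15a and miR-16-1 lies in a region of chromosome 13 that is often deleted in chronic lymphocytic leukaemia. The pair miR-15b and miR-16-2 lies within SMC4, a condensin subunit gene used in chromosome compaction at mitosis. The pair miR-195 and miR-497 is produced from another locus, on chromosome 17.

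All 9 members were matched to a mature sequence in RefSeq (GRCh38.p14). The 5p arms are shown first, because one seed defines the family. Sequences run 5′ to 3′ and capitals mark the seed.
hsa-miR-16-5p: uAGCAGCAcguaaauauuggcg
hsa-miR-15b-5p: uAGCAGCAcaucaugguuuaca
hsa-miR-15a-5p: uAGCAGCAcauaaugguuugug
hsa-miR-195-5p: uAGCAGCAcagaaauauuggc
hsa-miR-497-5p: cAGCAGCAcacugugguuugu
The 5 arms had the same seed and differed after it. miR-15b-5p and miR-15a-5p were 4 edits apart (C12A, A20G, C21U and A22G, with positions counted from the 5′ end and the base of miR-15b-5p first). miR-16-5p and miR-195-5p were 3 edits apart, with the substitutions G10A and U11G (the base of miR-16-5p first) and a missing last base in miR-195-5p. miR-15a-5p and miR-497-5p were 5 edits apart, and miR-16-5p and miR-15b-5p were 8 edits apart. The sources used here do not say how reads matching several miRNAs were counted, so small differences between such close sequences are uncertain.

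The 3p arms, which pair with the 5p arms in the hairpin and are usually the less abundant product, carry other seeds.
hsa-miR-16-2-3p: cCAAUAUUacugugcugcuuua
hsa-miR-195-3p: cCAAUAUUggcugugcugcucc
hsa-miR-16-1-3p: cCAGUAUUaacugugcugcuga
hsa-miR-15b-3p: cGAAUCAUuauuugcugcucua
miR-16-2-3p and miR-195-3p shared a seed although they come from different chromosomes, and were 5 edits apart. The 3p arms of miR-16-1 and miR-16-2 were 4 edits apart. The 3p arms of miR-15a and miR-497 were not analysed here.

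miR-16-5p is cut from 2 hairpins with the same 5p arm, so its reads cannot be assigned to a locus, whereas the 3p arms can. The hairpins are printed for that reason, with both arms in capitals.
MIR16-1: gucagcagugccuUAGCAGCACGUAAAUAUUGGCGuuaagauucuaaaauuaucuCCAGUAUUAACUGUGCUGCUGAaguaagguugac
MIR16-2: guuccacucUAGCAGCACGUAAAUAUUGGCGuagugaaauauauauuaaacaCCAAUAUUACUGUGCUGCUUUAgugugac
In GRCh38, MIR16-1 lies on the minus strand at chr13:50048973-50049061 and MIR15A on the same strand at chr13:50049119-50049201, with 57 bases between them. Both lie in the non-coding gene DLEU2 of GENCODE 29, where MIR16-1 was intronic in all 6 transcripts that span it and MIR15A overlapped an exon in 2 of 8. MIR15B (chr3:160404588-160404685) and MIR16-2 (chr3:160404745-160404825) lie on the plus strand, 59 bases apart, in an intron of all 13 SMC4 transcripts that span them. MIR195 (chr17:7017615-7017701) and MIR497 (chr17:7017911-7018022) lie on the minus strand, 209 bases apart, in the non-coding gene MIR497HG, where 1 of 2 transcripts had an exon over each.

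Values are normalized read counts, that is, reads multiplied by one factor per library. The reads behind them were recovered from the table and totalled between 701885 and 1079944 in 5 libraries and 7274329 in SMARCA4 replicate 2, 8.33 times the mean of the others. In that library 20.9% of the deposited total belonged to let-7 and miR-98 5p arms, against 6.54% to 7.78% in the other 5. Differences that moved with it are therefore also given without it. Of 7 miRNAs taken as markers of lung epithelium 6 were listed, and their summed level was 356 to 677 in empty vector cells and 425 to 623 in SMARCA4 cells. That sum covers opposite directions: miR-200b-3p was at 285 to 523 in empty vector and 140 to 243 in SMARCA4 cells (limma adjusted p = 0.109), whereas miR-141-3p rose (19.0 to 39.2 against 147 to 203), as did miR-203a-3p (3.77 to 5.71 against 36.6 to 42.5; limma adjusted p = 0.0124 for both). Red blood cells are rich in miR-16-5p. Of their 4 markers only miR-486-5p was listed, at 5574 to 7198 in empty vector cells and 7873 to 14426 in SMARCA4 cells. The part of these markers in the results was not tested. Of 4 white cell markers 2 were listed, with sums of 5.71 to 47.1 and 31.7 to 88.9. For smooth muscle and fibroblasts both markers were listed, with sums of 22.6 to 51.3 and 31.4 to 122, where miR-145-5p had 0 reads in 5 libraries and 1 read in SMARCA4 replicate 2. The neuronal miR-9-5p, the one listed of 2, was at 140 to 146 and 146 to 427. The muscle miRNAs miR-1-3p and miR-133a-3p had 0 reads in every library, and the other marker of muscle and the 1 marker of liver were not analysed here.

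miR-16-5p was by far the most abundant member and stood at rank 22 of 787 by mean level. It was at 15680, 9604 and 16204 normalized counts in empty vector replicates 1, 2 and 3, and at 16007, 13164 and 16017 in SMARCA4 replicates 1, 2 and 3. The groups overlapped, and the lowest value of all was that of empty vector replicate 2. miR-15b-5p followed at rank 104, with 694, 468 and 700 against 512, 313 and 571. Its groups overlapped as well, and SMARCA4 replicate 2 was the lowest. miR-15a-5p stood at rank 123, with 341, 272 and 258 against 518, 427 and 399. Here every SMARCA4 library lay above every empty vector library.

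The members from chromosome 17 were scarce. miR-195-5p (rank 336) was at 30.2, 26.6 and 29.4 in empty vector cells and at 23.5, 11.4 and 16.5 in SMARCA4 cells, so that all 3 SMARCA4 libraries were lower. These values rest on 14 to 18 reads per empty vector library and on 9, 27 and 7 reads in the SMARCA4 libraries. The exact 95% Poisson interval of SMARCA4 replicate 1 was 10.8 to 44.7 and that of SMARCA4 replicate 3 was 6.64 to 34.1, and both contained all 3 empty vector values. SMARCA4 replicate 2, with the most reads, had an interval of 7.52 to 16.6, which lay below all 3 empty vector values. Those values carry counting error too. The interval of empty vector replicate 2, 14.6 to 44.7, overlapped it, whereas those of empty vector replicates 1 and 3 began at 17.2 and 17.4. Intervals of this kind cover counting error alone, and can be too narrow for that, because PCR copies of a molecule are counted too. miR-497-5p (rank 371) was at 18.9, 22.8 and 11.4 against 23.5, 7.18 and 16.5, with overlapping groups and 7 to 17 reads per library. In the order of levels, miR-15b-5p and miR-15a-5p were not separated, since miR-15b-5p was the higher in 4 of 6 libraries, and neither were miR-195-5p and miR-497-5p, with miR-195-5p higher in 4 of 6 and equal in the others. miR-16-5p exceeded miR-15b-5p in 6 of 6 libraries, by 20.5-fold to 42.0-fold. Ligation efficiency differs between miRNAs in such libraries, so levels of different miRNAs are compared less safely than levels of one miRNA between libraries.

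Among the 3p arms, miR-16-2-3p was the most abundant, at rank 156. It was at 192, 156 and 168 in empty vector cells and at 222, 295 and 238 in SMARCA4 cells, and the groups did not overlap. miR-15b-3p (rank 243) was at 71.7, 55.2 and 76.9 against 62.8, 31.3 and 89.7, with the lowest and the highest value both in SMARCA4 libraries. miR-195-3p (rank 455) had 2, 1 and 5 reads against 3, 29 and 2, which is 3.77, 1.90 and 8.18 against 7.84, 12.3 and 4.72 normalized counts. Its groups overlapped. miR-16-1-3p had 0, 1 and 0 reads against 1, 1 and 0 and was not tested, as its mean over all libraries was 0.823. In the 3 libraries with 0 reads, a limit of 3 reads corresponds to 5.66 and 4.91 normalized counts in empty vector replicates 1 and 3 and to 7.08 in SMARCA4 replicate 3. Over the 6 libraries the 3p arm specific to MIR16-2 had 1172 reads and the 3p arm specific to MIR16-1 had 3, beside 67340 reads of the 5p arm they share. Without SMARCA4 replicate 2, which gave 699 of the 1172, these were 473, 2 and 36182 reads. How much miR-16-5p came from each hairpin was not measured, and ligation efficiency can differ between the 3p arms.

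**Figure D1:**
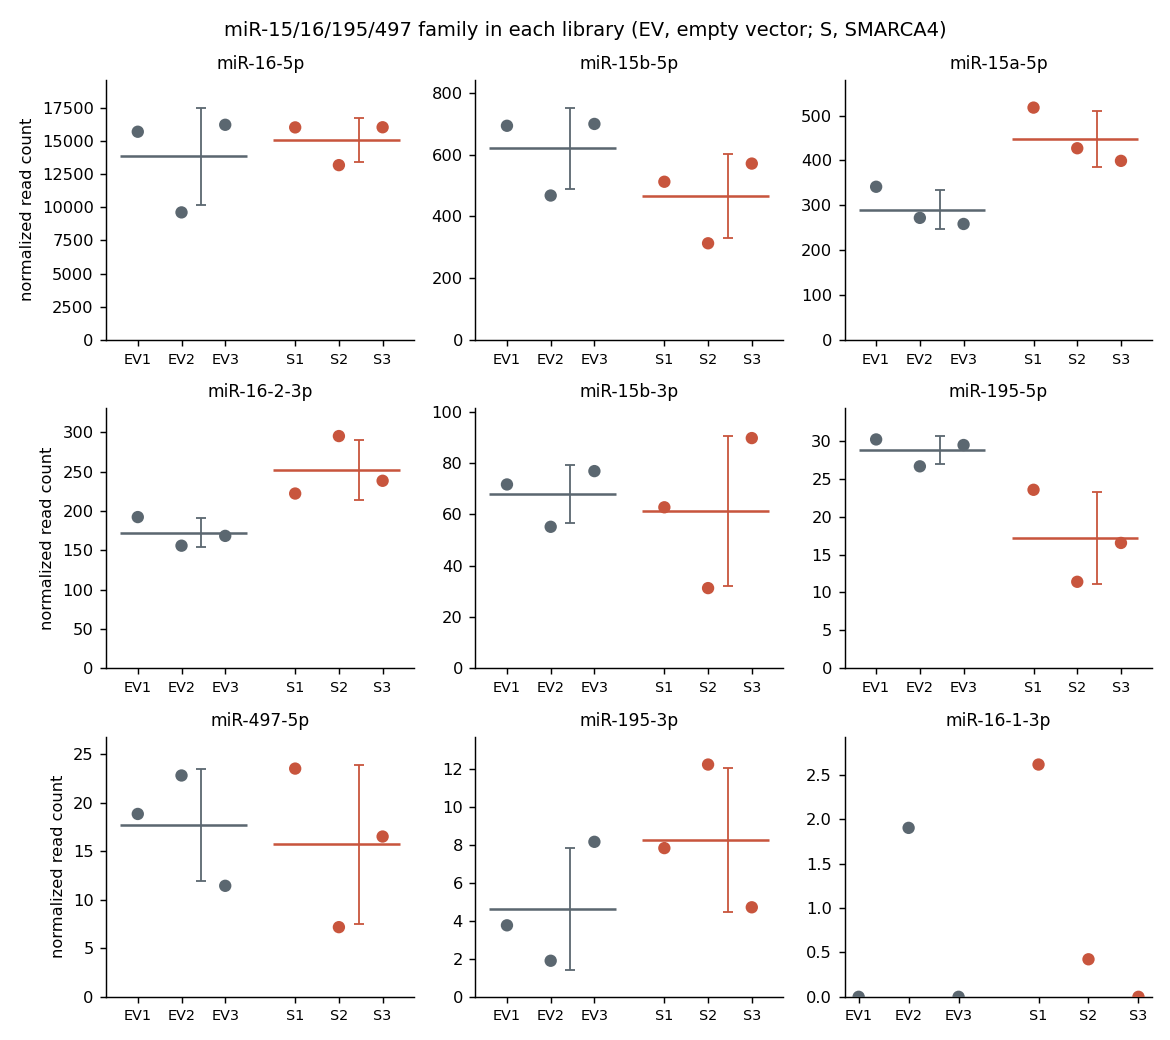
Normalized read counts (y axis, linear from 0, own scale per panel) of the 9 family members in the 3 empty vector libraries (EV1 to EV3, grey) and the 3 SMARCA4 libraries (S1 to S3, red). Lines are group means and error bars are SDs (n = 3), left out for miR-16-1-3p, which had 3 reads in all; the groups are separate for miR-15a-5p and miR-16-2-3p (SMARCA4 higher) and for miR-195-5p (SMARCA4 lower).

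No member passed the test of the group difference. Of the 9 members, 8 had the mean of at least 1 required for the test. Of these 8, tested with limma, 0 had an adjusted p under 0.05, where 9 of all 637 miRNAs tested did (1.41%), 6 of them higher (0.942%) and 3 lower (0.471%) with SMARCA4. At an unadjusted p under 0.05 the members again gave 0 of 8, where 22.6% of all tested miRNAs passed. Under 4 of the 17 alternatives tried some did, namely miR-15a-5p and miR-16-2-3p with no filter, and miR-15a-5p alone with a mean of at least 10, with a replicate block and without SMARCA4 replicate 2. edgeR and DESeq2 on the recovered reads also called 0 members at either threshold, with the adjusted p of miR-195-3p undefined in DESeq2. The split of all calls stayed at 6 higher and 3 lower with median-of-ratios scaling. It moved to 4 higher and 8 lower after scaling all libraries to an equal total and to 5 and 4 after quantile normalization. edgeR, which differs in test as well as scaling, gave 6 and 6. The groups did not overlap for 3 of the 8 members, 2 higher and 1 lower, where this held for 31.1% of all tested miRNAs (15.9% higher and 15.2% lower). The members' median absolute log2 fold change was 0.49, against 0.64 over all tested miRNAs, and miR-195-3p and miR-195-5p lay above the latter. In sign they were split, with 4 higher and 4 lower and a median of −0.05, equal to that of all tested miRNAs at this rounding.

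Log2 fold changes compare SMARCA4 with empty vector as log2(value + 1), and the added 1 shrinks the differences of scarce miRNAs. miR-15a-5p had a mean of 291 ± 44.5 in empty vector cells and 448 ± 62.0 in SMARCA4 cells (SD, n = 3 in both groups; limma log2 fold change 0.62 with SE 0.28 and adjusted p = 0.225), and its 95% interval ran from 0.992-fold to 2.40-fold. miR-16-2-3p was at 172 ± 18.5 against 252 ± 38.4 (SD, n = 3 in both groups; limma log2 fold change 0.54 with SE 0.29 and adjusted p = 0.296), with an interval of 0.921-fold to 2.30-fold. Both were higher with SMARCA4 in all 17 alternatives tried. Their size depended on the scale factor, since log2 fold changes were 0.30 and 0.22 with all libraries scaled to an equal total, which moved the median of all tested miRNAs by −0.26 (log2). Without SMARCA4 replicate 2 they were 0.65 and 0.42.

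miR-15b-5p pointed the other way, at 621 ± 132 against 466 ± 135 (SD, n = 3 in both groups; limma log2 fold change −0.44 with SE 0.33 and adjusted p = 0.455), with an interval of 0.440-fold to 1.24-fold. SMARCA4 replicate 2 carried much of this difference, which was −0.17 without it. Its partner arm miR-15b-3p was at 67.9 ± 11.3 against 61.2 ± 29.3 (log2 fold change −0.26, limma adjusted p = 0.765) and changed sign to 0.16 without that library. miR-16-5p was at 13829 ± 3669 against 15063 ± 1645 (SD, n = 3 in both groups; limma log2 fold change 0.16 with SE 0.29 and adjusted p = 0.783). Its 95% interval ran from 0.708-fold to 1.75-fold, which in log2 is −0.50 to 0.81, and from −0.95 to 0.62 (log2) with all libraries scaled to an equal total. Its sign was negative after that scaling (−0.17), after quantile normalization (−0.14) and without empty vector replicate 2 (−0.09).

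In the pair on chromosome 17, miR-195-5p was at 28.7 ± 1.87 against 17.2 ± 6.09 (SD, n = 3 in both groups; limma log2 fold change −0.77 with SE 0.44 and adjusted p = 0.327), with an interval of 0.295-fold to 1.17-fold and a value of −0.52 without SMARCA4 replicate 2. miR-497-5p, from the neighbouring hairpin, was at 17.7 ± 5.77 against 15.7 ± 8.20 (log2 fold change −0.25, limma adjusted p = 0.835), and was 0.20 without that library. miR-195-3p had a log2 fold change of 0.80 (SE 0.64, limma adjusted p = 0.481), which was 0.48 with a pseudocount of 5. SMARCA4 replicate 2 held 29 of its 42 reads, and the value was 0.50 without that library. With any 1 library left out it ran from 0.40 (empty vector replicate 2 left out) to 1.23 (replicate 3 of the same group left out). The intervals of the scarce members were wide, and reached from 0.353-fold to 2.01-fold for miR-497-5p and from 0.640-fold to 4.74-fold for miR-195-3p.

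**Figure D2:**
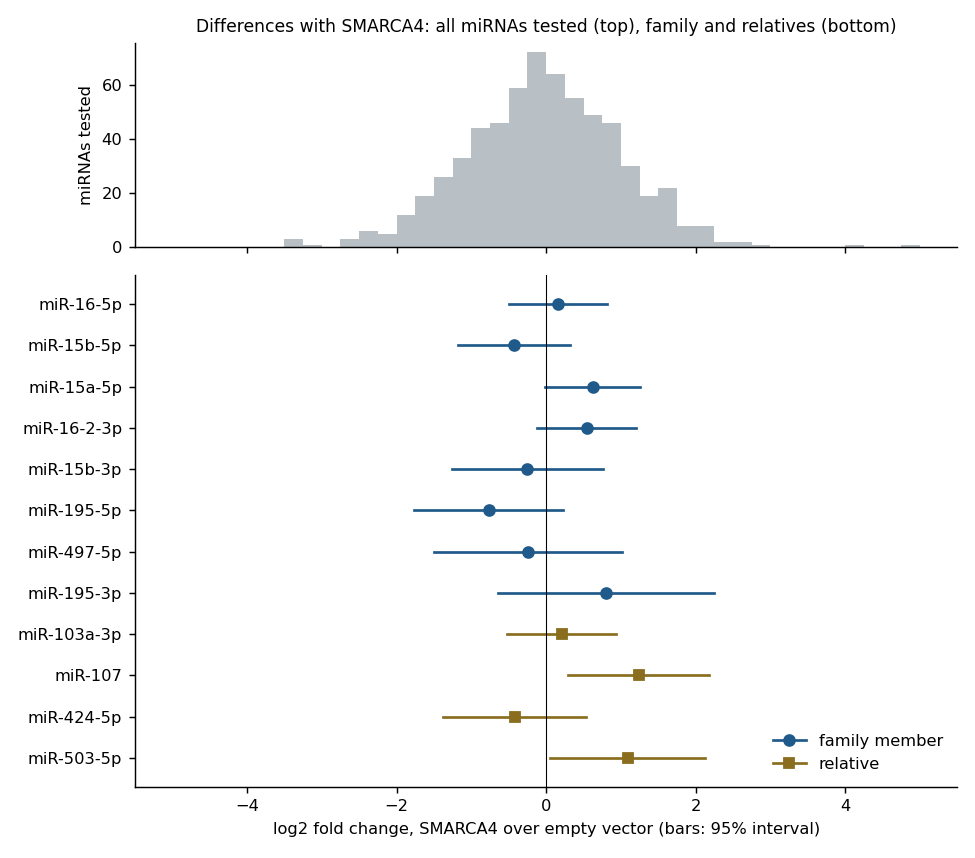
Log2 fold change of SMARCA4 over empty vector (x axis): number of miRNAs tested in each bin of 0.25 (top, 637 miRNAs) and, below, the 8 tested family members (circles) and 4 relatives (squares) with 95% intervals from limma. The intervals of all 8 members include 0, with miR-15a-5p closest to excluding it, and those of miR-107 and miR-503-5p do not include 0 before adjustment.

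Ratios between members within a library do not depend on its scale factor, apart from an added pseudocount, which matters for scarce arms. Of these ratios, 7 were compared by exact two-sided permutation tests on log2 ratios with a pseudocount of 1. With 3 against 3 libraries such a test cannot go under 0.1. The ratio of miR-15a-5p to miR-15b-5p was 0.492, 0.581 and 0.369 in empty vector cells and 1.01, 1.36 and 0.698 in SMARCA4 cells. The groups did not overlap, and miR-15a-5p went from the scarcer of this pair in all 3 empty vector libraries to about the level of miR-15b-5p or above in 2 of 3 SMARCA4 libraries. The difference in log2 ratio was 1.06, a 2.09-fold shift (exact permutation p = 0.1, adjusted p = 0.233 over the 7 ratios), and it ranged from 0.83 to 1.31 with any 1 library left out. Ratios without overlap were common in these data. They made up 38.8% of the 21528 pairs of miRNAs with a mean of at least 100, and 27.6% of those pairs also had a difference at least as large.

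The ratio of miR-15b-5p to miR-16-5p was 4.43%, 4.87% and 4.32% in empty vector cells and 3.20%, 2.38% and 3.57% in SMARCA4 cells. Every SMARCA4 library was lower (difference in log2 ratio −0.59, exact permutation p = 0.1, adjusted p = 0.233), with a range from −0.71 to −0.42 when any 1 library was left out. The ratio of miR-15a-5p to miR-16-5p was 2.18%, 2.83% and 1.59% against 3.23%, 3.24% and 2.49%, with overlapping groups (difference 0.47, exact permutation p = 0.2, adjusted p = 0.350). Among the 3 abundant 5p arms, the groups were separate for both ratios that involve miR-15b-5p and overlapped for the other. Groups were separate for 38.8% of all pairs of miRNAs with a mean of at least 100. Each of these ratios also follows from the other ones. By level alone, the groups overlapped for miR-15b-5p and were separate for miR-15a-5p.

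The ratios of 3p to 5p arm set the reads of the 3p product against those of the 5p product, which for miR-16-5p come from both hairpins. miR-15b-3p was at 10.3%, 11.8% and 11.0% of miR-15b-5p in empty vector cells and at 12.2%, 9.99% and 15.7% in SMARCA4 cells (exact permutation p = 0.5, adjusted p = 0.583), and the groups overlapped. miR-16-2-3p was at 1.23%, 1.62% and 1.04% of miR-16-5p against 1.39%, 2.24% and 1.49%, with overlapping groups (exact permutation p = 0.3, adjusted p = 0.420). The ratio of miR-195-3p to miR-195-5p was 0.125, 0.0714 and 0.278 against 0.333, 1.07 and 0.286 (exact permutation p = 0.1, adjusted p = 0.233). These groups were separate, as they were for 27.1% of all pairs of tested miRNAs, but 5 of the 6 values rest on 1 to 5 reads of the 3p arm. The difference in log2 ratio was 1.57, and 1.02 without SMARCA4 replicate 2. For miR-16-2-3p and miR-16-5p it was 0.39, and 0.17 without that library, and for the arms of miR-15b it was 0.18 and 0.33. For miR-16-1-3p the ratio to miR-16-5p was at most 0.0198% (exact permutation p = 0.9, adjusted p = 0.900).

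**Figure D3:**
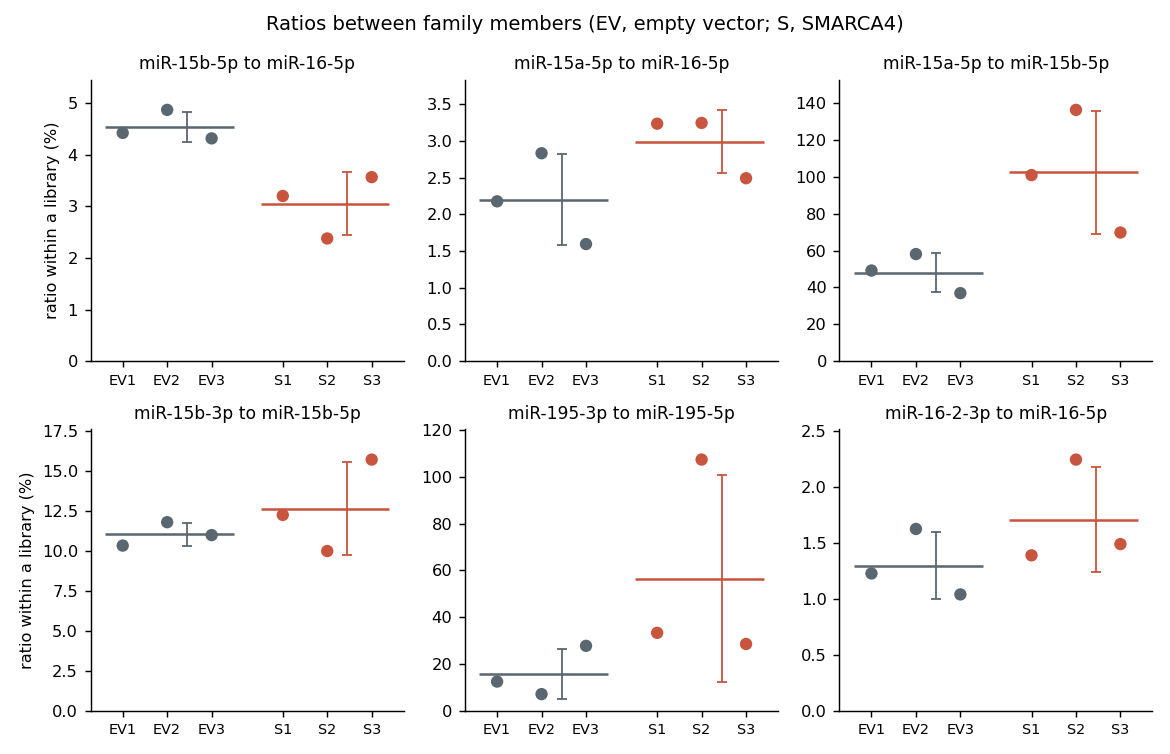
Ratio of the first to the second named miRNA within a library, in percent (y axis, linear from 0, own scale per panel), in empty vector (EV1 to EV3, grey) and SMARCA4 libraries (S1 to S3, red), with group means and SDs (n = 3). The ratio of miR-15a-5p to miR-15b-5p lies at 36.9% to 58.1% in empty vector and at 69.8% to 136% in SMARCA4 libraries, and that of miR-15b-5p to miR-16-5p is lower in each SMARCA4 library.

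As a sum over its 5 members on the 5p arm, the family held 1.01%, 0.585% and 0.974% of the deposited total in empty vector replicates 1 to 3. In SMARCA4 replicates 1 to 3 it held 0.931%, 0.453% and 0.939%. miR-424-5p, which has the same seed under another name, is not in this sum. The lowest share in each group was that of replicate 2. SMARCA4 replicate 2 was the library rich in let-7, and its deposited total was 3073322, against 1661870 to 1835229 in the others. The part of either in its low share was not tested. miR-16-5p made up 92.4% to 94.5% of this sum in every library. In normalized counts the sum was 14787 ± 3811 in empty vector cells and 16009 ± 1807 in SMARCA4 cells (SD, n = 3 each), a difference smaller than either SD. As a share of the total, the SMARCA4 mean differed from the empty vector mean by −0.0818 percentage points, and by 0.0788 without SMARCA4 replicate 2.

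Outside the named family, other miRNAs carry the core AGCAGC near the 5′ end and are grouped with it as an extended group with overlapping targets. Of 689 listed miRNAs with a RefSeq sequence, 9 had AGCAGC within the first 8 bases, namely the 5 members on the 5p arm and 4 relatives.
hsa-miR-424-5p: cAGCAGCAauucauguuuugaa
hsa-miR-503-5p: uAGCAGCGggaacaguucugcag
hsa-miR-103a-3p: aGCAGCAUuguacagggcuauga
hsa-miR-107: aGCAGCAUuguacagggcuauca
miR-424-5p had the seed of the family, miR-503-5p differed from it in the last seed base, and miR-103a-3p and miR-107 carried the core from base 1, so that their seed is shifted. miR-103a-3p and miR-107 differed by 1 substitution, G22C, and reads that end before it cannot be told apart.

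Of the 4 relatives, 0 passed the limma test over all miRNAs. At an unadjusted p under 0.05 there were 2, where 22.6% of all tested passed. Of them, 3 were higher and 1 was lower, where 308 of all 637 tested were higher and 329 lower. Their median log2 fold change was 0.65, against −0.05 over all tested miRNAs, and rests on 4 values that moved with the scaling. With all libraries scaled to an equal total, these were 0.91 for miR-107, 0.79 for miR-503-5p, −0.12 for miR-103a-3p and −0.74 for miR-424-5p. That scaling took the median of all tested miRNAs to −0.31. The groups did not overlap for 2 of the 4, both higher, where this held for 31.1% of all tested miRNAs (15.9% higher). miR-107, transcribed from an intron of a pantothenate kinase gene, was at 413, 669 and 348 in empty vector cells and at 894, 1943 and 730 in SMARCA4 cells. All 3 SMARCA4 libraries were higher (limma log2 fold change 1.24 with SE 0.42 and adjusted p = 0.124), and the value was 0.82 without SMARCA4 replicate 2, its highest library. The call depended on the fit, with an adjusted p of 0.0490 by DESeq2 on the recovered reads and of 0.0486 by limma with a replicate block. miR-103a-3p was at 5589, 8309 and 5164 against 6132, 10404 and 5799 (log2 fold change 0.21, limma adjusted p = 0.723), and changed sign under 3 alternatives.

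miR-424-5p and miR-503-5p come from neighbouring hairpins on chromosome X. miR-424-5p, the relative with the family seed, was at 204, 198 and 309 against 199, 95.9 and 272, with overlapping groups (log2 fold change −0.42, limma adjusted p = 0.577), and was at 0.00 without SMARCA4 replicate 2. miR-503-5p was at 9.43, 13.3 and 18.0 against 28.8, 22.8 and 37.8, higher in all 3 SMARCA4 libraries on 5 to 54 reads each (log2 fold change 1.09, limma adjusted p = 0.200). SMARCA4 replicate 2 was the lowest of the 6 libraries for miR-424-5p, as it was for miR-15b-5p, miR-15b-3p, miR-195-5p and miR-497-5p, and the highest for miR-16-2-3p, miR-195-3p, miR-107 and miR-103a-3p.

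The 3 abundant 5p arms had different profiles over the 6 libraries. As a measure of likeness, log2(value + 1) was centred on its mean for each miRNA and the root mean square difference was taken over the 6 libraries. It was 0.63 between miR-15a-5p and miR-15b-5p, 0.36 between miR-15a-5p and miR-16-5p and 0.35 between miR-15b-5p and miR-16-5p. Among 204 other miRNAs with a mean of at least 100, closer profiles were found for each. With that many candidates closer profiles were likely in any case, and the spread of the measure over all pairs of miRNAs was not computed. The closest to miR-16-5p were miR-26a-5p (0.08), miR-128-3p (0.09) and the entry listed as miR-151a-5p@ (0.11), all of which were also lowest in empty vector replicate 2. miR-26a-5p was also the next below miR-16-5p in mean level, at 13995 against 14446, and miR-28-3p the next above at 14819. The closest to miR-15b-5p were miR-224-5p (0.10), miR-641 (0.14) and miR-106b-5p (0.16), all lowest in SMARCA4 replicate 2. The closest to miR-15a-5p were miR-532-5p (0.18), miR-345-5p (0.20) and miR-152-3p (0.21), and the SMARCA4 libraries of miR-532-5p and miR-152-3p were all higher than the empty vector libraries. The closest miRNAs were chosen over these same 6 libraries, so a shared lowest library or group order largely follows from the choice. These figures are descriptions over libraries that differ in depth and scale factor.

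In mean level, the neighbours of miR-15b-5p were miR-148a-3p (603) and miR-7977 (538), around its own 543, and those of miR-15a-5p were miR-132-3p (385) and miR-4454 (363), around its own 369. The neighbours of miR-195-5p were miR-382-5p (23.2) and miR-425-3p (22.94), around its own 22.95. For miR-497-5p, at 16.7, they were miR-449c-5p (16.7) and miR-766-3p (16.4). Each of these gaps was smaller than the SD of the family member within either group.

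**Figure D4:**
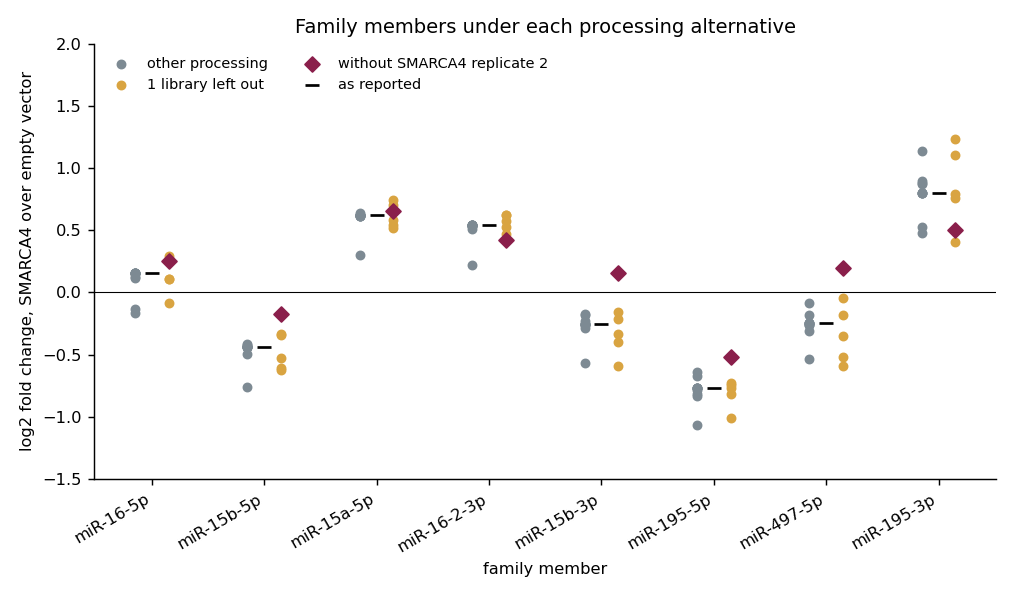
Log2 fold change of SMARCA4 over empty vector (y axis) of the 8 tested family members as reported (black bar), under other processing (grey), with any 1 library left out (yellow) and without SMARCA4 replicate 2 (purple diamond). miR-15a-5p and miR-16-2-3p stay above 0 and miR-15b-5p and miR-195-5p stay below 0 in every setting, whereas miR-16-5p, miR-15b-3p and miR-497-5p cross 0 in at least 1.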

How the data were processed

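Small RNA was sequenced from 6 A549 cultures, 3 per group. Per the labels' protocols, the library kit was TruSeq Small RNA. The submitters' processing notes name bcl2fastq 2.18.0.12 and the build GRCh38. For the trimmer, aligner, counter and miRNA annotation, the sources used here give nothing. The deposited values are a normalized signal, reads times one factor per library, and the table's name speaks of TMM. Reads were recovered for 100% of values within 1e-06 reads.

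limma 3.58.1 (R 4.3.3, mean-variance trend, group as the only term) was run on log2(value + 1) for the 637 miRNAs with a mean of at least 1, with Benjamini-Hochberg adjustment over all of them. It was tested on simulated data first, with changes larger than those of the family members. That check does not say whether differences of the members' size would be found. As alternatives, the recovered reads were tested with edgeR 4.0.16 and DESeq2 1.42.0. Ratios were compared with scipy 1.17.1. Groups and replicate numbers came from sample titles, and no 2 libraries agreed within sampling noise. Named miRNAs were all members, the measured relatives with the AGCAGC core, the 3 nearest profiles of each 5p arm with a mean of at least 100, and the neighbours in mean level. The family, the lists and the tests were chosen with earlier results of these data known. Sequences and positions come from RefSeq (GRCh38.p14) and host genes from GENCODE 29. Other alternatives were the pseudocount, the filter, 3 scalings, no trend, a replicate block and leaving out each library.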

Additional observations from a re-analysis of the deposited data

How the results depend on the processing

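No member that was tested had an adjusted p under 0.05 in the 17 alternatives, where the lowest was 0.142 (miR-15a-5p, no filter). miR-195-3p was not tested with a mean of at least 10, and its adjusted p was undefined in DESeq2. Over all miRNAs the number of calls, 9 as reported, was 23 with no filter and 47 with DESeq2, and ranged from 0 to 41 with 1 library left out (41 when SMARCA4 replicate 2 was left out, 0 for empty vector replicate 1 and for SMARCA4 replicate 1, 2 for empty vector replicate 3 and 1 for SMARCA4 replicate 3). The cause was not tested. The log2 fold change of miR-16-5p came to −0.17 after scaling to an equal total and −0.14 after quantile normalization, and ran from −0.0877 to 0.29 with 1 library left out. Those ranges were −0.59 to 0.16 for miR-15b-3p and −0.59 to 0.20 for miR-497-5p. miR-15a-5p, miR-15b-5p, miR-16-2-3p, miR-195-5p and miR-195-3p kept their direction wherever tested. Among relatives, miR-103a-3p was at −0.12 with an equal total, −0.0624 after quantile normalization and −0.0592 to 0.42 with 1 library left out, and miR-424-5p at −0.74 to 0.00325. The ratio of miR-16-1-3p to miR-16-5p, on 3 reads, differed by 0.12 (log2), by −0.0696 with a pseudocount of 5 and by −0.37 to 0.88 with 1 library left out. The other 6 ratios kept their direction. The groups share replicate numbers, but same-numbered libraries deviated together only weakly (correlations 0.0136 to 0.0882). Of 6 libraries, 5 correlated best with their own number, empty vector replicate 3 at only 0.0136. These 6 outcomes are not independent, since each correlation counts for both of its libraries, so they do not decide whether the numbers mark pairs. With a replicate block 13 miRNAs were called in place of 9, miR-15a-5p had an adjusted p of 0.143 and miR-107 one of 0.0486. Depth limits miR-195-5p, miR-497-5p, miR-195-3p and miR-16-1-3p, which had 91, 62, 42 and 3 reads over the 6 libraries.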
